A study of Mus musculus with 13 samples.

Results

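Blocking angiopoietin-2 in tumour-bearing PDGFRb-TK mice was compared with giving the same hosts a control antibody, over all genes measured. The 4T1 line, a mouse mammary carcinoma, was grown orthotopically, and total tumour RNA was put on Illumina bead arrays. The comparison used 6 of the 13 samples of the series. Of these, 3 were tumour samples from PDGFRb-TK hosts treated with anti-Ang2 antibody (TK/anti-Ang2). The other 3 were tumour samples from PDGFRb-TK hosts treated with control IgG (TK/IgG). Both groups carried the PDGFRb-TK genotype and both were GCV injected, so the controls share the pericyte targeting. Ages and doses are not given in the labels. In this model the Pdgfrb promoter drives a viral thymidine kinase, so ganciclovir (GCV) acts on dividing cells that use that promoter, which are pericytes and any other such cells. The same platform also held 3 tumour samples from wild-type hosts on the same control antibody (WT/IgG). Those arrays entered the fit for its estimate of spread, and the labels give them the same positive transgene field and GCV injection. Genes were kept when the probe's detection p was below 0.05 on at least 3 of the 6 TK arrays, which left 10567 genes.

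Angiopoietin-2 is a secreted ligand of the endothelial receptor tyrosine kinase Tie2, encoded by Tek. Angiopoietin-1, made largely by mural cells, activates Tie2 and steadies vessels, while angiopoietin-2, made by endothelial cells, antagonises or weakly activates the receptor depending on the setting and is raised in growing tumour vessels. VE-PTP, encoded by Ptprb, is an endothelial phosphatase that removes phosphate from Tie2. Levels below are normalised log2 intensities of 1 probe per gene, so a difference of 1 is a doubling, and levels of different genes are not compared.

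One array stood apart. TK/anti-Ang2 replicate 2 had a median correlation of 0.93 with the other 8 arrays, against 0.97 to 0.98 for each of the others, and was the lowest of the 6 TK arrays for 28.8% of genes. The mean of 10 skin and hair genes was 6.89, 11.71 and 6.24 on TK/anti-Ang2 replicates 1 to 3, against 6.25, 6.28 and 9.14 on TK/IgG replicates 1 to 3. The mean of 9 fat-cell genes was 8.79, 10.19 and 7.19 on the TK/anti-Ang2 arrays and 6.20, 8.82 and 7.08 on the TK/IgG arrays. The skin genes were therefore high on TK/anti-Ang2 replicate 2 and, less so, on TK/IgG replicate 3, and the fat genes on TK/anti-Ang2 replicates 1 and 2 and TK/IgG replicate 2. The mean of 13 skeletal muscle genes was 6.97, 5.81 and 9.71 on the TK/anti-Ang2 arrays and 5.61, 6.95 and 8.85 on the TK/IgG arrays, high on replicate 3 of each group. Results are given with and without TK/anti-Ang2 replicate 2, and the part that these tissues have in a result was not tested unless a value without that array is given. Detection ranged from 40.6 to 43.2% of probes and the median signal from 119.1 to 134.7 over the 9 arrays.

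**Figure D1:**
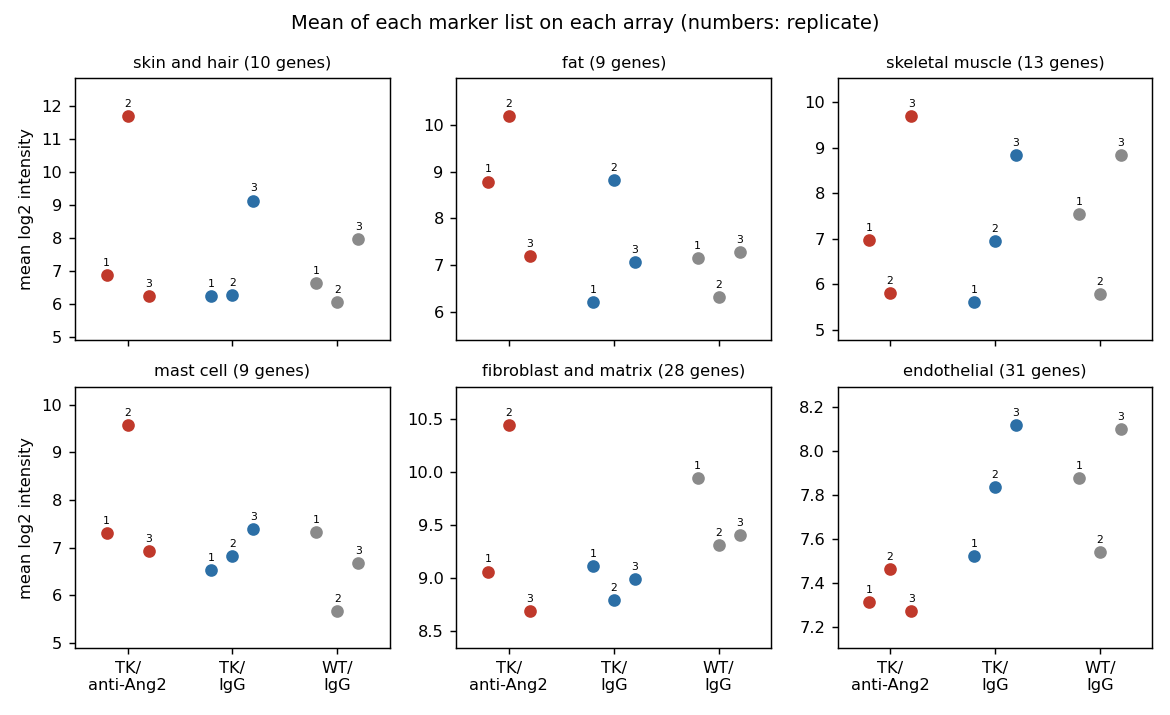
Mean normalised log2 intensity of 6 marker lists (vertical axes, each with its own scale) on each array, grouped as TK/anti-Ang2, TK/IgG and WT/IgG, with the replicate number above each point. The skin and hair mean of 11.71 on TK/anti-Ang2 replicate 2 is the highest of the 9 arrays, and the endothelial means of the 3 TK/anti-Ang2 arrays lie below those of the 3 TK/IgG arrays.

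No gene passed the test. With limma and Benjamini-Hochberg adjustment over the 10567 genes, 0 genes (0%) had an adjusted p under 0.05, and the lowest adjusted p was 0.991. At an unadjusted p under 0.05 there were 362 genes (3.43%), fewer than the 528 that this threshold gives on average with no difference. Of these, 134 (1.27%) were higher and 228 (2.16%) were lower in TK/anti-Ang2 tumours. No TK/anti-Ang2 array overlapped the TK/IgG range for 725 genes (6.86%), with 272 (2.57%) higher and 453 (4.29%) lower. That share is below the 10% that 3 against 3 arrays give on average with no difference. Lack of overlap in a single gene is therefore weak evidence. Without TK/anti-Ang2 replicate 2 there were again 0 genes at an adjusted p under 0.05 (lowest 0.999), with 129 genes (1.22%) higher and 167 (1.58%) lower at the unadjusted threshold. Of the 362 genes, 154 kept an unadjusted p under 0.05 without that array, and all 362 kept their direction. The median standard error of a difference was 0.21, and the median half-width of its 95% interval was 0.47, so most differences below that size were not detectable with these arrays. The labels do not say whether replicates are separate animals. A p-value here therefore reflects only how far these samples scatter, and that scatter may be technical.

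Most endothelial genes lay lower in TK/anti-Ang2 tumours. Of 40 endothelial markers, 31 passed the detection filter, and 28 of these were lower and 3 higher, with a median difference of -0.44. Over all genes tested the median was -0.02, with 53.4% lower and 46.6% higher. For 12 of the 31 the arrays of the groups did not overlap, all lower, against 4.29% of all genes. At an unadjusted p under 0.05, 7 of the 31 were lower and 0 higher, against 2.16% and 1.27% of all genes. Without TK/anti-Ang2 replicate 2 the median was -0.56, with 30 of 31 lower and 15 not overlapping. Of all genes, 51.4% were then lower and 48.6% higher, and 7.97% were lower and 6.68% higher without overlap. The list mean was 7.32, 7.47 and 7.27 on the TK/anti-Ang2 arrays, against 7.53, 7.84 and 8.12 on the TK/IgG arrays. No member passed the adjusted test, and in whole tumours fewer endothelial cells and less RNA per endothelial cell cannot be told apart. Beyond leaving out arrays, the part of the differing skin, fat and muscle RNA in these differences was not tested.

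**Figure D2:**
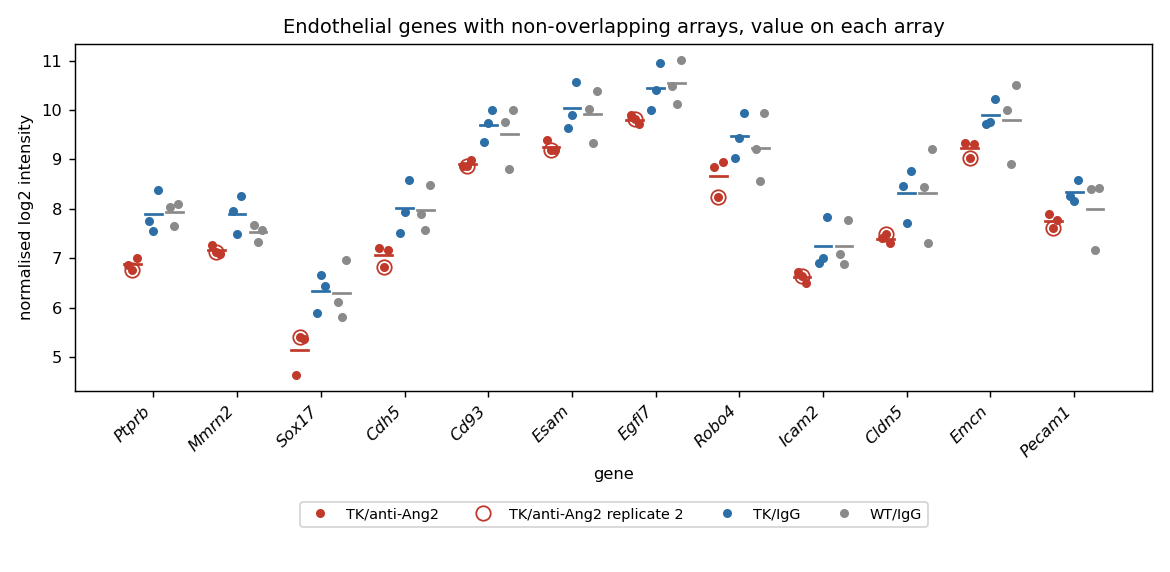
Normalised log2 intensity (vertical axis) of the 12 endothelial genes whose TK arrays did not overlap, ordered by limma p, with a point for each array, a line at each group mean and a ring on TK/anti-Ang2 replicate 2. In each of the 12 genes the 3 TK/anti-Ang2 arrays lie below the 3 TK/IgG arrays; Ptprb spans 6.76 to 7.005 against 7.55 to 8.37.

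For these genes that lay lower together, promoters are shown, since they are a common property that the arrays did not use. Of the 12 genes, 4 matched the RefSeq promoter table (GRCm38.p6), which holds windows of 300 bases that span each start. The 3 with a single start are printed 5′ to 3′, with capitals marking AGGAAG or its reverse complement CTTCCT. This is a form of the site bound by ETS factors, which are regulators of endothelial genes. Other forms of that site are not marked. Robo4 lies at chr9:37401722-37402021, Cldn5 at chr16:18776597-18776896 and Emcn at chr3:137340828-137341127, all on the plus strand.
Robo4: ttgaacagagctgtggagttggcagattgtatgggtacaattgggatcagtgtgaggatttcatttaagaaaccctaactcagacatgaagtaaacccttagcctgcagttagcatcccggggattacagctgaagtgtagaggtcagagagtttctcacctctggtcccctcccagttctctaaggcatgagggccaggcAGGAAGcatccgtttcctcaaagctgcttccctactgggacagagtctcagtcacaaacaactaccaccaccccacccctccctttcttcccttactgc
Cldn5: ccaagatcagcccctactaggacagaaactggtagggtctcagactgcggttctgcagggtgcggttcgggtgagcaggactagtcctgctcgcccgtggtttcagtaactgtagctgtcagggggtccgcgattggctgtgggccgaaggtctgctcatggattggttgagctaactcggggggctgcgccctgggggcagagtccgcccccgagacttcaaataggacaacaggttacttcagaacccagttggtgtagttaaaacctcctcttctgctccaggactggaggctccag
Emcn: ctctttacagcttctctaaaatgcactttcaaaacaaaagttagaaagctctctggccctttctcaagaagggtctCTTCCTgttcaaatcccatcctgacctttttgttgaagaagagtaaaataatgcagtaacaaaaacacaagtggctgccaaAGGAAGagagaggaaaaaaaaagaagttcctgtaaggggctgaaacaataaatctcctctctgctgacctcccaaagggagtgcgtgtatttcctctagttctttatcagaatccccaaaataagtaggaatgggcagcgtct
AGGAAG was found on either strand in 4 of the 6 windows of the 4 matched genes, and in 35.4% of all 32851 windows. Counted by gene, with any window sufficing, 3 of the 4 held it. So did 8 of the 12 matched endothelial genes whose arrays overlapped. A gene with several windows has more chances of a match, so the gene counts are not to be set against the share of windows. The forkhead sequence TGTTTAC was found on either strand in none of the 4 or the 12, and in 3.65% of all windows. The 2 motifs overlapped each other in 15 of all windows. A match is a description of letters and not of binding.

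Within the angiopoietin list, the phosphatase gene Ptprb was the 1 member of 10 whose arrays did not overlap, against 4.29% of all genes lower without overlap. Ptprb stood at 6.86, 6.76 and 7.005 on the TK/anti-Ang2 arrays, against 7.76, 7.55 and 8.37 on the TK/IgG arrays. All 3 TK/anti-Ang2 arrays lay below all 3 TK/IgG arrays. The difference was -1.02 (SE 0.23, limma unadjusted p = 0.0015, adjusted p = 0.991), and -0.96 (SE 0.26) without TK/anti-Ang2 replicate 2. The exact permutation p was 0.1, the smallest that 3 against 3 arrays can give.

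The antibody's target, Angpt2, stood at 10.61, 10.40 and 10.23 in TK/anti-Ang2 tumours and at 11.11, 10.29 and 10.29 in TK/IgG tumours. The groups overlapped, with a difference of -0.15 (SE 0.24, 95% interval -0.68 to 0.39), and a second kept probe went the other way. An antibody acts on the protein, so the transcript is no check of its effect. Tek, which encodes Tie2, stood at 6.13, 6.71 and 5.98 in TK/anti-Ang2 tumours and at 6.16, 6.70 and 6.87 in TK/IgG tumours. These overlapped on all 6 arrays (difference -0.31, SE 0.26) and did not overlap without TK/anti-Ang2 replicate 2 (-0.53, SE 0.25). Tie1, the orphan partner of Tie2, differed by -0.23 (SE 0.31) and Angpt1 by -0.31 (SE 0.29). The Angpt1 difference was -0.02 (SE 0.25) without TK/anti-Ang2 replicate 2. Of the 10 members kept from 12 in this list, 7 were lower and 3 higher (median -0.27, and -0.17 without that array). The median was -0.02 when TK/IgG replicate 3 was left out as well. The largest positive difference was that of Svep1, an extracellular matrix protein, at 1.57 (SE 0.82), with 8.92 on TK/anti-Ang2 replicate 2 and 5.78 and 5.55 on the other arrays of its group, against 4.66, 5.73 and 5.15 in TK/IgG tumours. Without that array the difference was 0.48.

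Junction and adhesion genes of the endothelium gave 5 of the 12 non-overlapping members. Cdh5, which encodes VE-cadherin of the adherens junction, stood at 7.21, 6.81 and 7.17 in TK/anti-Ang2 tumours, against 7.51, 7.95 and 8.58 in TK/IgG tumours. The difference was -0.95 (SE 0.31, adjusted p = 0.991 by limma) and -0.82 (SE 0.35) without TK/anti-Ang2 replicate 2. Cldn5, the tight junction claudin of endothelium, stood at 7.41, 7.49 and 7.30 in TK/anti-Ang2 tumours, against 8.46, 7.71 and 8.76 in TK/IgG tumours (difference -0.91, SE 0.44). In both genes the groups did not overlap and the TK/IgG arrays were the more spread. Esam, an adhesion molecule of endothelial contacts, differed by -0.78 (SE 0.30), Pecam1, the adhesion molecule CD31, by -0.58 (SE 0.32), and Icam2, an adhesion molecule of endothelium, by -0.62 (SE 0.29), all without overlap.

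The SoxF transcription factors, which specify endothelial and arterial identity, were lower as well. Sox17 stood at 4.64, 5.40 and 5.36 in TK/anti-Ang2 tumours, against 5.88, 6.67 and 6.44 in TK/IgG tumours. The groups did not overlap, and the difference of -1.20 (SE 0.34) was the largest in size of the endothelial list; 2 of the 3 TK/anti-Ang2 arrays and 3 of the 3 TK/IgG arrays detected it. Sox18 overlapped, at 7.46, 6.94 and 7.02 in TK/anti-Ang2 tumours and 7.29, 8.30 and 8.45 in TK/IgG tumours (difference -0.87, SE 0.40). Sox7 differed by -0.38.

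Among surface and secreted endothelial proteins, Cd93, a lectin-like receptor, stood at 8.86, 8.86 and 8.99 in TK/anti-Ang2 tumours, against 9.35, 9.75 and 10.01 in TK/IgG tumours (difference -0.80, SE 0.30). Mmrn2, an extracellular ligand of CD93, stood at 7.27, 7.13 and 7.09 in TK/anti-Ang2 tumours, against 7.96, 7.48 and 8.27 in TK/IgG tumours (difference -0.74, SE 0.21). Both were lower on every TK/anti-Ang2 array than on any TK/IgG array. Robo4, a guidance receptor of endothelium, differed by -0.79 (SE 0.37), the sialomucin Emcn by -0.68 (SE 0.36) and the secreted factor Egfl7 by -0.65 (SE 0.28), also without overlap. Of the VEGF receptors, Flt1 differed by -0.49 (SE 0.24) and Kdr by 0.05 (0.17 without TK/anti-Ang2 replicate 2), both with overlapping arrays. The other 2 members above 0 were the connexin Gja4 at 0.08 and the sialomucin Cd34 at 0.26, both below 0 without TK/anti-Ang2 replicate 2 (-0.10 and -0.24).

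The Notch pathway, which sets arterial identity and restrains sprouting, gave 2 non-overlapping members among 13, both lower, against 4.29% of all genes. Notch4, an endothelial receptor of the pathway, stood at 8.18, 8.21 and 8.21 in TK/anti-Ang2 tumours, against 9.06, 8.59 and 9.42 in TK/IgG tumours (difference -0.82, SE 0.29). Nrarp, a Notch target that damps the signal, stood at 8.82, 8.96 and 9.05 in TK/anti-Ang2 tumours, against 9.39, 9.63 and 9.36 in TK/IgG tumours (difference -0.52, SE 0.14). Without TK/anti-Ang2 replicate 2 the differences were -0.83 and -0.52. The ligands Dll4 and Jag1 differed by 0.04 and 0.03 (0.22 and 0.02 without that array), and the list as a whole had 7 members higher and 6 lower, with a median of 0.01 that changed sign with the processing. Of 16 tip-cell and angiogenic genes, 10 were lower and 6 higher (median -0.08), and 8 were lower and 8 higher without TK/anti-Ang2 replicate 2 (median -0.03). One of the 16 was lower without overlap, against 4.29% of all genes. Esm1, a proteoglycan of tip cells, stood at 8.96, 7.05 and 8.50 in TK/anti-Ang2 tumours, against 9.56, 9.02 and 9.30 in TK/IgG tumours. Its difference of -1.12 (SE 0.56) became -0.57 without TK/anti-Ang2 replicate 2. Vegfa, the main angiogenic ligand, overlapped between groups, with a difference of 0.16 (SE 0.33), and 0.01 (SE 0.36) without that array.

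Vascular basement membrane genes lay slightly lower. Of 13 measured, 11 were lower and 2 higher, with a median of -0.18 (-0.11 without TK/anti-Ang2 replicate 2, with 12 lower). The list mean was 9.31, 9.38 and 9.44 in TK/anti-Ang2 tumours, against 9.53, 9.52 and 9.55 in TK/IgG tumours. No single member was free of overlap. The largest differences were those of Lama5, a laminin chain, at -0.47 (SE 0.29) but -0.19 without TK/anti-Ang2 replicate 2, Col15a1, a collagen of vessel basement membrane, at -0.40 (SE 0.17), and Hspg2, which encodes perlecan, at -0.29 (SE 0.19).

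Mural cell genes, which mark pericytes and smooth muscle, showed no common direction. Of 14 measured, 8 were higher and 6 lower, with a median of 0.03 (-0.06 without TK/anti-Ang2 replicate 2). Pdgfrb, the receptor whose promoter drives the transgene, stood at 5.60, 6.49 and 5.93 in TK/anti-Ang2 tumours and 6.11, 5.64 and 6.23 in TK/IgG tumours (difference 0.01, SE 0.25, 95% interval -0.56 to 0.59), and differed by -0.23 (SE 0.23) without TK/anti-Ang2 replicate 2. The smooth muscle myosin Myh11 did not overlap, at 5.14, 5.83 and 5.17 in TK/anti-Ang2 tumours against 4.95, 4.85 and 4.91 in TK/IgG tumours, where no array detected it. By group means it was at least 1.26-fold higher, and at least 1.08-fold without TK/anti-Ang2 replicate 2, the array at 5.83. Myh11 passed the detection filter only through its TK/anti-Ang2 arrays, so its lack of overlap is no independent support. It was 1 of 14 members, against 2.57% of all genes higher without overlap. Mcam, the adhesion molecule CD146 of pericytes and endothelium, overlapped and differed by -0.61 (SE 0.24). Des, the intermediate filament of muscle and pericytes, differed by 1.03 (SE 1.30), and by 1.89 without TK/anti-Ang2 replicate 2. It was highest on replicate 3 of either group, at 11.25 in TK/anti-Ang2 and 9.44 in TK/IgG. The muscle list was also high on those arrays, but Des is itself a member of that list.

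**Figure D3:**
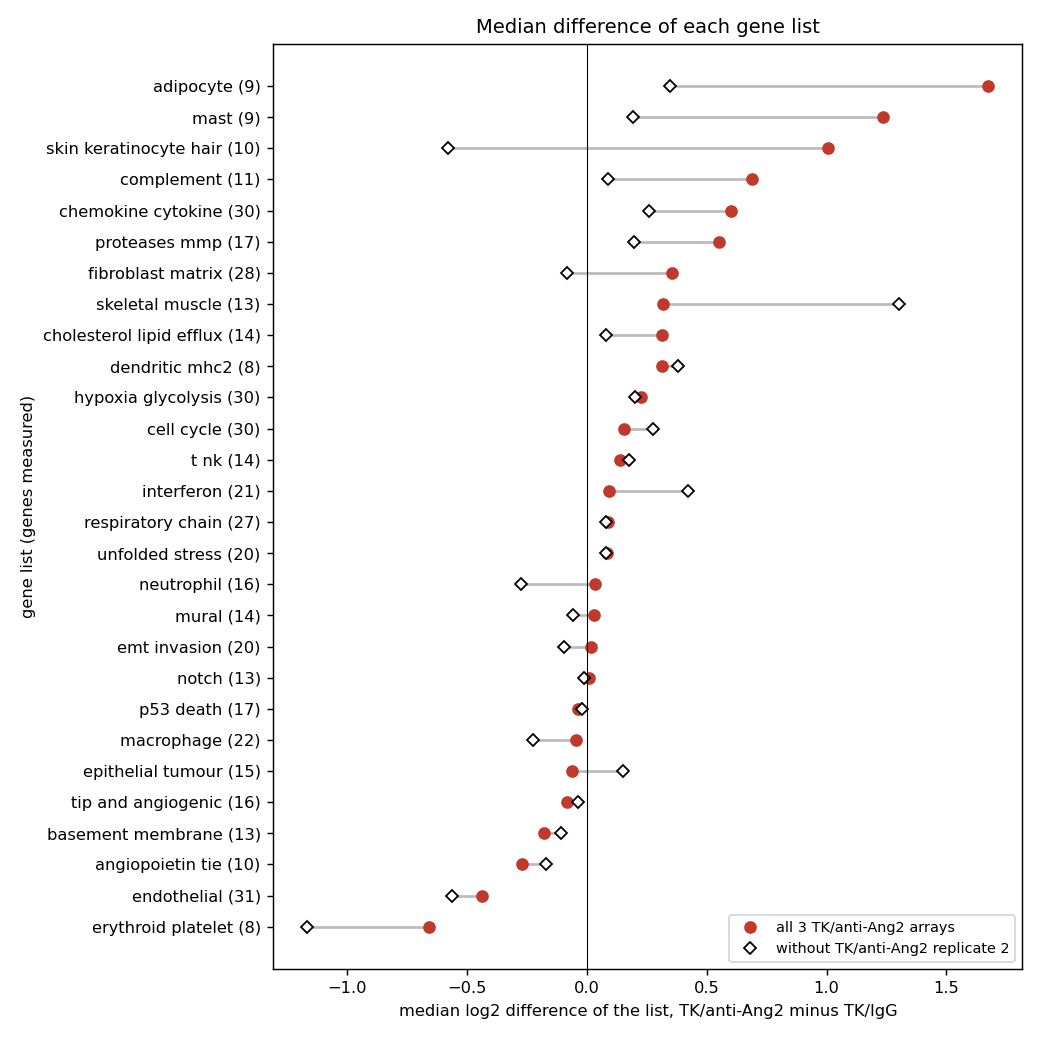
Median log2 difference, TK/anti-Ang2 minus TK/IgG (horizontal axis), of each gene list with at least 8 genes measured (number in brackets), with all 3 TK/anti-Ang2 arrays (filled) and without TK/anti-Ang2 replicate 2 (open). The endothelial list is at -0.44 and -0.56, while the skin list goes to 1.01 with that array and -0.58 without it.

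Most chemokines and cytokines lay higher in TK/anti-Ang2 tumours, by less without the outlying array. Of 30 measured, 26 were higher and 4 lower, with a median of 0.60, and 24 were higher with a median of 0.26 without TK/anti-Ang2 replicate 2. Against 2.57% of all genes, 2 of the 30 were higher without overlap. Cxcl13, the B cell attracting chemokine, stood at 8.34, 10.26 and 6.75 in TK/anti-Ang2 tumours, against 4.74, 4.99 and 6.45 in TK/IgG tumours. The difference was 3.05 (SE 0.82, adjusted p = 0.991 by limma) and 2.15 (SE 0.65) without that array. Cxcl13 was detected on 1 of the 3 TK/IgG arrays, so the size of its difference rests on values near background. With no background correction that difference was 1.75. Il1a, the inflammatory cytokine interleukin-1 alpha, stood at 8.38, 6.81 and 6.58 in TK/anti-Ang2 tumours, against 5.98, 6.36 and 6.47 in TK/IgG tumours (difference 0.98, SE 0.46). In both genes the lowest TK/anti-Ang2 array was close to the highest TK/IgG array. The largest overlapping differences were those of the monocyte chemokine Ccl8 (1.34), Saa3, which encodes an acute-phase serum amyloid (1.32), and the eosinophil chemokine Ccl11 (1.23), which were 0.37, 0.73 and 0.77 without TK/anti-Ang2 replicate 2.

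Proteases and hypoxia genes showed smaller shifts. Of 17 proteases and inhibitors, 11 were higher and 6 lower (median 0.55, and 0.20 without TK/anti-Ang2 replicate 2). The median was 0.01 when TK/IgG replicate 3 was left out as well. Plau, the urokinase plasminogen activator, stood at 11.41, 11.48 and 11.16 in TK/anti-Ang2 tumours, against 10.79, 10.34 and 10.95 in TK/IgG tumours. Its difference was 0.66 (SE 0.21), and 0.59 without TK/anti-Ang2 replicate 2. It was the 1 member of 17 without overlap, against 2.57% of all genes higher without overlap. Mmp10 and Mmp3, both stromelysins, overlapped and differed by 1.39 and 1.24. Of 30 hypoxia and glycolysis genes, 26 were higher and 4 lower (median 0.23, and 0.20 without TK/anti-Ang2 replicate 2), and the median was 0.04 when TK/IgG replicate 3 was left out as well. None was free of overlap. The collagen cross-linker Lox had the largest difference, 1.30 (SE 0.52), and 0.75 without TK/anti-Ang2 replicate 2.

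Leukocyte lists had few members without overlap. The neutrophil median was 0.04 over 16 genes and -0.27 without TK/anti-Ang2 replicate 2, and the macrophage median -0.05 over 22 genes and -0.22 without it. T and NK cell genes had a median of 0.14 over 14 genes and 0.18 without it, with all members overlapping. The 8 measured genes of dendritic cells and MHC class II were all higher, with a median of 0.32 and overlap in each, and all 8 were higher with a median of 0.38 without it. The mast cell median of 1.23 over 9 genes became 0.19 without TK/anti-Ang2 replicate 2. The non-overlapping members of these lists were Elane and Tpsb2. Elane, the neutrophil elastase, differed by -0.32 (SE 0.13). Tpsb2, a mast cell tryptase, differed by 1.23 (SE 0.69), and by 0.40 without that array. They were 1 of 16 neutrophil genes and 1 of 9 mast cell genes, against 4.29% of all genes lower and 2.57% higher without overlap. Elane was detected on 1 of the 3 TK/anti-Ang2 arrays, so its difference rests on values near background. Among overlapping members, the granule gene Camp differed by -1.12 (SE 0.49) and the macrophage chitinase-like gene Chil3 by -1.25 (SE 0.76). Other overlapping members were higher, with Hp of the neutrophil list at 1.58 and Cd163 of the macrophage list at 0.94. Without TK/anti-Ang2 replicate 2, Hp differed by 0.75 and Cd163 by -0.17. With all arrays, 9 neutrophil genes were higher and 7 lower, and 8 macrophage genes were higher and 14 lower. The 2 measured B and plasma cell genes had a median of 0.25, and 0.42 without TK/anti-Ang2 replicate 2. The 3 lymphatic endothelial genes had one of 0.28, and -0.25 without it. Interferon response genes had a median of 0.09 over 21 genes and 0.42 without that array, with Gbp2, a guanylate-binding protein, at 0.51 and 0.87.

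Haemoglobin genes had lower means in TK/anti-Ang2 tumours. Hba-a1 stood at 11.61, 12.22 and 9.88 in TK/anti-Ang2 tumours, against 13.55, 11.80 and 13.62 in TK/IgG tumours (difference -1.75, SE 0.75). TK/IgG replicate 2 lay within the TK/anti-Ang2 range. Without TK/anti-Ang2 replicate 2 the difference was -2.25 and the arrays no longer overlapped. Alas2, the erythroid enzyme of haem synthesis, behaved alike, at -1.94 and -2.47. The list of 8 red cell and platelet genes had 4 members higher and 4 lower, with a median of -0.66, and -1.16 without TK/anti-Ang2 replicate 2. Its 1 non-overlapping member of 8 was the carbonic anhydrase Car2, against 2.57% of all genes higher without overlap. Car2 was higher, at 6.24, 5.89 and 5.41 in TK/anti-Ang2 tumours against 5.38, 4.84 and 5.12 in TK/IgG tumours (difference 0.73, SE 0.22). Hbb-bs and Hbb-bt, near-identical beta globin genes whose probes may share signal, differed by -1.80 and -1.71.

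Matrix and skin genes followed TK/anti-Ang2 replicate 2, and fat genes did so in part. Of 28 fibroblast and matrix genes, 27 were higher and 1 lower with all arrays (median 0.35), but 9 were higher and 19 lower without that array (median -0.08). The 10 skin and hair genes had a median of 1.01 with it and -0.58 without it. The 9 fat genes had medians of 1.68 and 0.35, and 8 of the 9 were still higher without that array. The 11 complement genes had medians of 0.69 and 0.09, and the 14 genes of cholesterol and lipid handling 0.32 and 0.08. The 4 nerve and Schwann cell genes had a median of 0.08, and -0.04 without that array. Skeletal muscle genes had a median of 0.32 with that array and 1.30 without it. Over all genes, 80 differences moved by more than 1 when the array was left out, and 73 of these were higher with it.

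**Figure D4:**
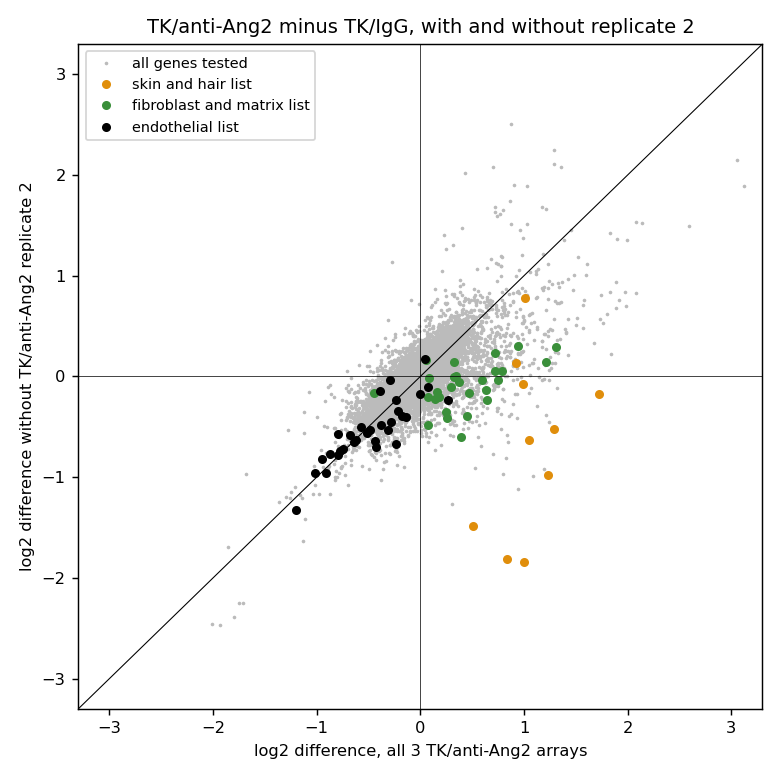
Each gene's log2 difference, TK/anti-Ang2 minus TK/IgG, with all arrays (horizontal axis) and without TK/anti-Ang2 replicate 2 (vertical axis), with the line of equality. Endothelial genes (black) lie near the line below 0, while fibroblast and skin genes lie below the line to the right.

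Cell cycle, epithelial and stress lists had small medians. Of 30 cell cycle genes, 24 were higher and 6 lower (median 0.16, and 0.27 without TK/anti-Ang2 replicate 2). Pcna, the replication clamp, was lower without overlap, at 5.79, 5.61 and 6.06 in TK/anti-Ang2 tumours against 6.61, 6.08 and 6.31 in TK/IgG tumours (difference -0.51, SE 0.20). Dtl, a ubiquitin ligase adaptor of the cell cycle, stood at 5.39, 5.25 and 5.30 in TK/anti-Ang2 tumours and was not detected on any TK/IgG array. By group means it was at least 1.20-fold higher. It passed the detection filter only through its TK/anti-Ang2 arrays, so its lack of overlap is no independent support. Dtl and Pcna were 1 of 30 each way, against 2.57% of all genes higher and 4.29% lower without overlap. Of 15 epithelial genes 5 were higher (median -0.06), but 13 were higher without TK/anti-Ang2 replicate 2 (median 0.15). Of 20 EMT and invasion genes 10 were lower (median 0.02), and 16 were lower without that array (median -0.09). The medians with and without it were 0.09 and 0.08 for 20 unfolded protein response genes, and -0.04 and -0.02 for 17 p53 and cell death genes. They were 0.09 and 0.08 for 27 respiratory chain genes. Chchd10, a mitochondrial protein of that list, stood at 10.42, 10.88 and 10.91 in TK/anti-Ang2 tumours, against 9.28, 9.95 and 9.59 in TK/IgG tumours (difference 1.13, SE 0.26). The other non-overlapping members, Ndufa9 and Uqcrc2, subunits of complexes of the chain, were higher by 0.20 (SE 0.13) and 0.08 (SE 0.13). With Chchd10 they were 3 of 27, against 2.57% of all genes higher without overlap.

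Among genes without overlap, the smallest p-values belonged to genes lower in TK/anti-Ang2 tumours. Rhbdf2, an inactive rhomboid protein that carries the TNF-releasing protease to the cell surface, stood at 5.27, 5.71 and 5.79 in TK/anti-Ang2 tumours, against 6.79, 6.44 and 6.59 in TK/IgG tumours (difference -1.02, SE 0.20, limma unadjusted p = 0.00062, adjusted p = 0.991). Sema7a, a membrane-anchored semaphorin, stood at 8.41, 8.04 and 8.25 in TK/anti-Ang2 tumours, against 9.38, 9.96 and 9.24 in TK/IgG tumours (difference -1.29, SE 0.26, and -1.20 without TK/anti-Ang2 replicate 2). Both were lower on each TK/anti-Ang2 array than on any TK/IgG array. Plekha3 differed by -0.74 (SE 0.15), Slc23a3 by -0.79 (SE 0.17), Fan1, a DNA repair nuclease, by -0.59 (SE 0.14), and Stard9 by -0.55 (SE 0.13). Mga, a MAX-binding transcription factor, was not detected on any TK/anti-Ang2 array and by group means was at least 1.38-fold lower. It passed the detection filter only through its TK/IgG arrays, so its lack of overlap is no independent support. Among the genes without overlap, those with the largest differences downward included Sema7a and the following. Adamts9, a matrix metalloprotease, differed by -1.37 (SE 0.54), Adap1 by -1.21 (SE 0.42) and the vitamin D hydroxylase Cyp24a1 by -1.14 (SE 0.47). Without TK/anti-Ang2 replicate 2, the smallest p-values downward also took in Tmem82 (-0.68) and Hps5 (-0.74). Slc23a3, Adamts9 and Tmem82 were each detected on 1 of the 3 TK/anti-Ang2 arrays, so the sizes of their differences rest on values near background.

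The genes without overlap that had the largest differences upward were high on TK/anti-Ang2 replicate 2. Ptx3, a secreted pentraxin of inflammation, stood at 7.03, 10.69 and 6.99 in TK/anti-Ang2 tumours, against 4.38, 5.46 and 5.51 in TK/IgG tumours (difference 3.12, SE 0.97, and 1.89 without that array). Serpina3n, an acute-phase protease inhibitor, stood at 11.22, 13.11 and 11.14 in TK/anti-Ang2 tumours, against 9.04, 10.08 and 10.37 in TK/IgG tumours (difference 1.99, SE 0.75, and 1.35 without it). In both genes the other TK/anti-Ang2 arrays were still above all TK/IgG arrays. Reg1 and Cpxm1 differed by 2.59 and 1.92, and by 1.49 and 0.76 without that array. Pltp, the phospholipid transfer protein, stood at 5.66, 6.78 and 5.81 in TK/anti-Ang2 tumours, against 4.56, 5.17 and 4.71 in TK/IgG tumours (difference 1.27, SE 0.29, and 0.92 without it). The neurotrophin receptor gene Ntrk2 differed by 1.60 (SE 0.40), the cytochrome Cyp1b1 by 1.43 (SE 0.38), the potassium channel subunit Kcne4 by 0.98 (SE 0.24), C1s1, a complement protease, by 0.94 (SE 0.21) and Art3 by 0.89 (SE 0.20). Pltp, Ntrk2 and C1s1 were each detected on 1 of the 3 TK/IgG arrays, and Ptx3, Reg1, Kcne4 and Art3 on 2. The sizes of these differences therefore rest in part on values near background. Without TK/anti-Ang2 replicate 2, Ube2s, a ubiquitin-conjugating enzyme of mitosis, and the nuclear pore gene Nup54 were also among the smallest p-values, at 0.76 and 0.95.

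**Figure D5:**
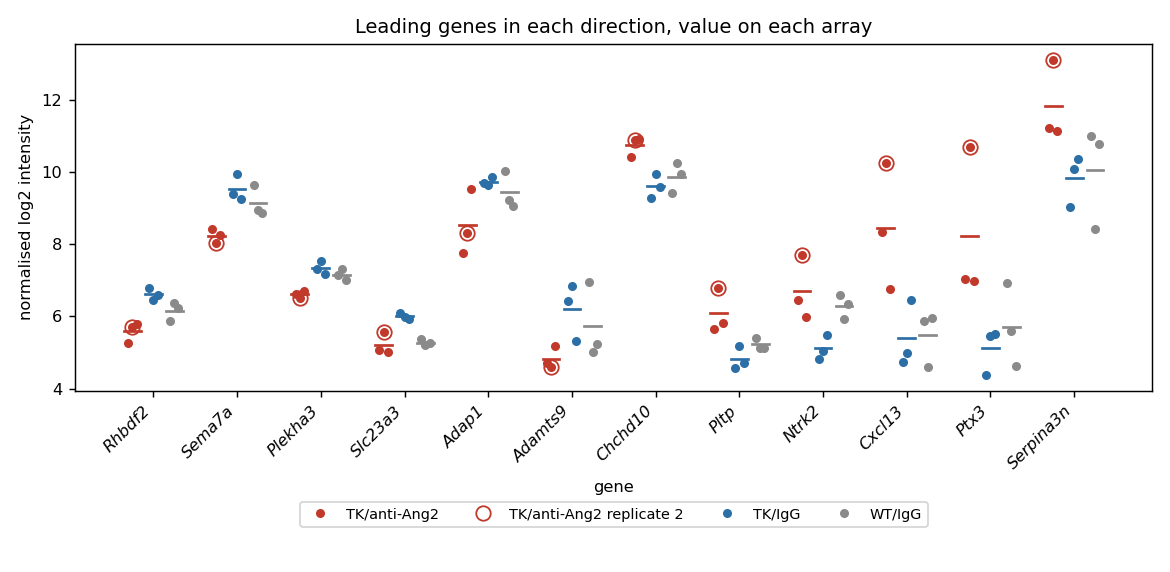
Normalised log2 intensity (vertical axis) of 12 genes from the smallest p-values and largest differences, 6 lower and then 6 higher in TK/anti-Ang2 tumours, with a point for each array, a line at each group mean and a ring on TK/anti-Ang2 replicate 2. The arrays of the TK groups do not overlap in any of the 12, and Cxcl13 and Ptx3 reach 10.26 and 10.69 on TK/anti-Ang2 replicate 2.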

How the data were processed

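Bead array signals of total tumour RNA from 9 samples on 1 platform entered the fit. Per the file headers, the deposited table holds an intensity for each probe and array, not normalised, with its detection p-value. GenomeStudio is named in the submitters' processing notes, with no version or settings. On each array the authors' own intensity values could be written as the deposited signal times 1 factor plus 1 constant, to within 0.102. There were 6 columns that could not be mapped to a sample, and these were left out. The platform annotation gave 1 symbol to 34885 of 45281 probes, several to 18 and none to 10378, and 34807 had a RefSeq match.

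Background was corrected with the detection p-values and arrays were quantile-normalised with neqc (offset 16, limma 3.58.1, R 4.3.3). A gene was read from its kept probe of highest mean. Groups came from the titles. They were compared with lmFit and eBayes over 9 arrays, whose number limits the precision, and p-values were adjusted by Benjamini-Hochberg. The fit was tested on simulated data. The 31 gene lists were described by counts and medians, with no test. Members, lists and tests were chosen with earlier results of these data known.

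The naming rule takes 9 genes always (Angpt2, Angpt1, Tek, Tie1, Ptprb, Pdgfrb, Pecam1, Cdh5, Vegfa). It then takes the 8 smallest p-values and 5 largest differences each way among genes without overlap. It also takes the 5 smallest p-values each way without TK/anti-Ang2 replicate 2, and the largest differences in each list. Not every list member that the rule takes is named above, so those named are not always the largest of their list. Other members named were chosen after their values were seen. Where no array of a group detected a gene, its fold is a bound computed against the lowest signal among detected probes. The bound uses group means and leaves out the scatter between arrays. Other settings tried concerned background, normalisation, the source of values, filters, probes per gene, the arrays fitted, weights, moderation and a block for replicate number.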

Additional observations from a re-analysis of the deposited data

How the results depend on the processing

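No gene had an adjusted p under 0.05 in any setting tried; the lowest adjusted p was 0.358 without TK/anti-Ang2 replicate 3, 0.577 with array weights and 0.683 with both arrays highest in the skin list left out, a setting chosen after seeing the data. The count at an unadjusted p under 0.05 (362) ranged from 258 to 1069 when each array was left out, with 1069 without TK/anti-Ang2 replicate 3, and was 216 with median scaling, 687 with no detection filter, 600 with every probe by itself and 880 with array weights; the cause was not tested, except that the filter and probe settings test more features. Of the unadjusted calls, 63.0% were lower, against 43.5% with median scaling, 51.7% with the authors' processed values and 40.2% without both skin-rich arrays. The endothelial median kept its direction in 24 of 24 settings, from -0.61 to -0.30. The Notch median (0.01) was -0.26 for genes detected on all 6 TK arrays and -0.12 with array weights, and -0.19 to 0.095 when each array was left out. The p53 and cell death median (-0.04) was 0.033 with the authors' values and 0.052 with the mean of a gene's probes, and -0.036 to 0.023 when each array was left out. The complement median was -0.029 with array weights. The B and plasma cell list had no value for genes detected on all 6 TK arrays. Whether replicate numbers pair the samples cannot be decided. Each gene's deviation from its group mean was taken on each array, and these deviations were correlated between arrays. The correlations for same-numbered TK arrays were mixed (0.33, -0.12 and 0.01). Differently numbered TK arrays from the TK/anti-Ang2 and TK/IgG groups gave -0.23 to 0.24. Same-numbered arrays gave 0.03, 0.01 and 0.36 between TK/IgG and WT/IgG. Between TK/anti-Ang2 and WT/IgG they gave -0.07, -0.13 and 0.22. With the replicate block 430 genes had an unadjusted p under 0.05 and 0 an adjusted one.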
